A study of Mus musculus with 12 samples.

Results

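Tumours of mice given cisplatin were compared with tumours of mice not given it, 6 libraries against 6, which together are all 12 libraries of the series. The 6 with cisplatin are the 3 of the cisplatin group and the 3 of the combination group, which received cisplatin and brivanib. The 6 without are 3 given vehicle and 3 given brivanib, and brivanib enters the model as a covariate, so that the cisplatin term is an average over tumours with and without brivanib. Every tumour came from injected LLC cells (Lewis lung carcinoma, a mouse line that arose in a C57BL/6 lung), in female C57BL/6 hosts aged 6 to 8 weeks. Per the labels the cells, in Matrigel, went into each flank of 6 mice per group, and treatment started at 100 mm3 with intraperitoneal injections of 100 µL 2 times per week for 4 weeks. Neither the doses nor the time between the last injection and collection are given in the sources used here. The 10 to 12 tumours per group came from 6 mice, so libraries may share a mouse, and p-values describe the scatter among these libraries, which may be partly technical.

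Cisplatin forms platinum adducts and crosslinks between DNA bases, which stall replication forks, engage excision repair and the Fanconi pathway, and hold cells before mitosis through the ATR, CHK1 and WEE1 kinases. In the body it is also known for toxicity to kidney, nerve and bone marrow, where red cell precursors are formed. Brivanib inhibits the VEGF and FGF receptor kinases of vessels and stroma.

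Levels are deposited FPKM (fragments per kilobase of transcript, scaled to library depth), summed over the transcripts of a gene, and differences are on the log2(FPKM + 1) scale, given as cisplatin minus no cisplatin ± standard error (SE). Fragments recovered from the FPKM summed to 17.161 to 30.943 M per library. The totals to which the FPKM were scaled were 18.002 to 23.546 M. Brivanib 5 had the highest sum but a scaling total of 21.021 M, so the sum does not show deeper sequencing. Of the recovered fragments, ribosomal-like features took 38.323% in brivanib 5 and 0.316% to 0.692% in the others. The mean log2(FPKM + 1) of skeletal muscle markers was 4.359 in brivanib 3, 4.062 in brivanib 5 and 2.372 in combination 2, against 0.4073 to 1.629 in the other 9 libraries. For adipocyte markers it was 3.103 to 3.487 in the combination, 2.9 in cisplatin 1 and 4.182 in brivanib 3, against 1.345 to 2.19 elsewhere. Of 16 lung epithelial markers 2 passed the filter on low values and 6 were at 0 in all libraries, although the labelled cells are of lung cancer origin.

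Of 14246 genes tested, 798 (5.60%) differed with cisplatin at an adjusted p under 0.05, 659 higher (4.63%) and 139 lower (0.976%). The sizes were small. The median was 0.47 among the higher and -0.56 among the lower genes, and 60 genes differed by at least 2-fold, 42 higher and 18 lower. The 6 and 6 libraries did not overlap for 581 genes (4.08%), of which 448 were among the 798. Of the called genes 82.6% were higher on the deposited scale, and 66.6% under median-of-ratios scaling (420 higher, 211 lower), 66.7% under quantile normalization (402 and 201), 69.1% with ribosomal-like features removed and 66.2% with voom on recovered fragments (467 and 238). The count fell to 336 without combination 2 and was 1027 without brivanib 3. It was also over 1.5 times lower without vehicle 3 (425), brivanib 5 (504), cisplatin 1 (521) or cisplatin 3 (459).

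Red cell transcripts had the largest differences. Hbb-bs, an adult beta globin gene (GRCm38 chromosome 7, 103826534 to 103828096, minus strand), was at 655, 1245 and 1173 FPKM in vehicle 2, 3 and 5 and at 1209, 259.5 and 180.1 FPKM in brivanib 2, 3 and 5. In cisplatin 1, 2 and 3 it was at 32.9, 6.46 and 0 FPKM, and in all 3 combination libraries at 0. The groups did not overlap, and the lowest library without cisplatin stood above the highest with it. The mean went from 787 ± 490 to 6.56 ± 13.2 FPKM (SD, n = 6), a log2 difference of -7.94 ± 0.71 (adjusted p = 0.000424). No overlap was seen for the other adult globin genes either. Their log2 differences were -6.74 ± 0.56 (Hbb-bt), -6.89 ± 0.69 (Hba-a2) and -5.28 ± 0.50 (Hba-a1). Adult globin genes form pairs of near-identical copies that share fragments, so the split within a pair is uncertain. Hbb-bt too was at 0 in all 3 combination libraries, but the Hba genes were not. In combination 2, 3 and 4, Hba-a1 was at 3.965, 13.74 and 4.324 FPKM, and Hba-a2 at 0.5572, 2.114 and 0 FPKM.

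In fragments, Hbb-bs had 9688, 17352 and 14141 in vehicle, 16385, 3642 and 2377 in brivanib, 442, 93 and 0 in cisplatin, and 0 in each combination library. Against a floor of 3 fragments per library, Hbb-bs in the combination was at least 2470-fold below the mean of the brivanib libraries, and Hbb-bt at least 940-fold. Brivanib 2 was the highest library in that mean, so the bound against brivanib 3 or 5 alone is lower. Alas2, whose enzyme makes the first precursor of haem in red cell progenitors (chromosome X, 150547375 to 150570638), was at 10.19, 15.99 and 16.56 FPKM in vehicle, 11.9, 4.25 and 2.63 in brivanib, 1.49, 0.168 and 0.239 in cisplatin, and 0.18, 0.598 and 0.218 in the combination. It fell by 2.77 ± 0.32 on the log2 scale (adjusted p = 0.00158), although brivanib 3 and 5 were themselves below vehicle. With the most abundant transcript alone, limma did not call Alas2 (adjusted p = 0.0665).

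Of 7 tested erythroid markers 5 fell and 0 rose (71.4% against 5.60% of all genes). Bpgm, the red cell regulator of oxygen affinity, was at -0.33, and the mitochondrial iron importer Slc25a37 at -0.04, without passing. Of the 17 genes of haem synthesis and iron handling that most cells use, limma called 0, with a median of 0.03. An unadjusted p under 0.05 was found for 5 of them, against 3314 of all 14246 genes. That list's median changed sign in 6 of 30 alternatives. The count of erythroid markers that fell was also 5 without brivanib 3 and 5, a setting chosen after seeing the data, as everywhere below. In bulk tumour RNA, fewer cells of a type and less RNA per cell cannot be told apart, and the blood held by each tumour was not measured.

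**Figure D1:**
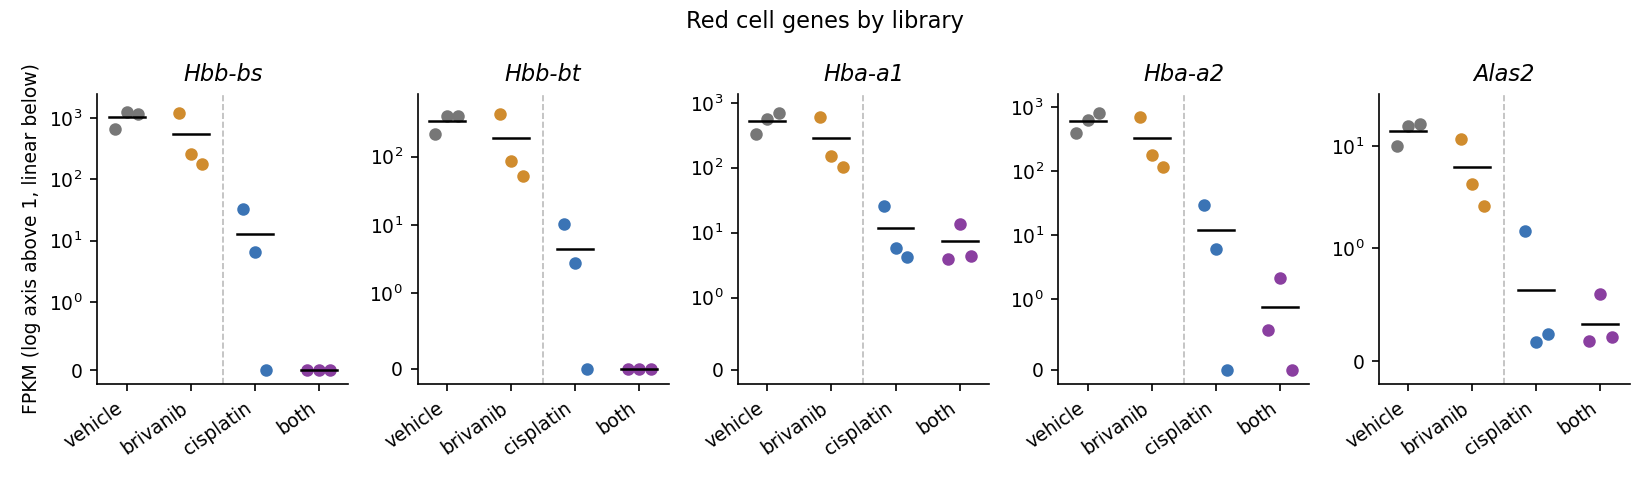
FPKM of 4 adult globin genes and Alas2 in each library (points) with group means (lines), on an axis that is logarithmic above 1 and linear below. The dashed line divides libraries without cisplatin from those with it. In every panel all 6 libraries on the right lie below the 6 on the left, and Hbb-bs and Hbb-bt are at 0 in the 3 libraries given both drugs.

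Of 21 tested genes that glucocorticoid hormone induces, 6 rose with cisplatin. The hormone's receptor binds DNA as a dimer on paired copies of a short motif, and its direct targets include feedback and stress genes. Tsc22d3, the glucocorticoid-induced leucine zipper (chromosome X, 140539528 to 140600659), was at 18.4, 24.1 and 15.6 FPKM in vehicle, 16.4, 20.2 and 17.9 in brivanib, 68.2, 22.4 and 75.6 in cisplatin and 64.8, 216.2 and 84.7 in the combination. Cisplatin 2 lay within the range of the untreated libraries, so the groups overlapped, and combination 3 was the highest. The log2 difference was 1.90 ± 0.35 (adjusted p = 0.0127).

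Fkbp5, a chaperone that lowers the receptor's hormone affinity (chromosome 17, 28399095 to 28517524), was at 42.4, 43.1 and 39.7 FPKM in vehicle, 35.3, 44.1 and 38.3 in brivanib, 93.8, 56.4 and 112.7 in cisplatin, and 89.7, 139.6 and 87.6 in the combination. It rose by 1.19 ± 0.17 (adjusted p = 0.00335), with no overlap. Sgk1, a kinase that regulates ion transport (chromosome 10, 21882184 to 21999903), went from 44.3 ± 6.88 to 95.7 ± 26.4 FPKM (SD, n = 6), a rise of 1.07 ± 0.16 (adjusted p = 0.00434). Its libraries ran from 37.0 to 54.9 FPKM without cisplatin and from 62.9 (cisplatin 2) to 143.9 FPKM (combination 3) with it. Sgk1 lost its call with the most abundant transcript alone. Klf9, a zinc finger repressor, rose by 1.10 and Arl4d, a small GTPase, by 1.07 on the log2 scale.

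Of 21 tested glucocorticoid-induced genes 6 rose and 0 fell (28.6% against 5.60%), with a median of 0.41 against 0.05 over all genes. The sixth was Per1, described with the clock genes. Among those that did not pass, the phosphatase gene Dusp1 was at 0.66, Cdkn1a at 0.61, the metallothionein Mt2 at 0.42, Nfkbia at 0.01 and Ddit4 at -0.39. In the 5 genes without overlap, combination 3 was the highest library in 4 and cisplatin 2 the lowest with cisplatin in 4. The adipocyte marker score was high in combination 3 (3.422) and at vehicle level in cisplatin 2 (1.37). Other libraries went the other way. The score was highest in brivanib 3 (4.182), where Fkbp5 was at 44.1 FPKM, and 1.582 in cisplatin 3, where Fkbp5 was at 112.7 FPKM. The part of adipocyte content in these genes was not tested further. With the adipocyte score as the only tissue covariate 5 genes were called. With both tissue scores as covariates 4 genes were called and the median was 0.27, and without brivanib 3 and 5 it was 5 calls.

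The promoter of Sgk1 is shown as the one window of the 6 genes with paired receptor motifs, and it does not stand for the others. The windows are RefSeq promoters on GRCm38.p6, 250 bases before to 50 after a start. The receptor's motif AGAACA, searched on both strands, was in 6233 of all 32851 windows and in 1526 of the 12103 windows of tested genes. It was in 4 of the 14 windows of the 6 genes that rose, which belong to 2 of them, Sgk1 and Tsc22d3. That motif facing its own reverse complement across 3 bases was in 3 of all 32851 windows, and in 1 of the 12103 windows of tested genes, which is this one. Capitals mark these motifs and the E-box CACGTG. At the left end an E-box overlaps one on the other strand. The motifs of the facing pair begin 189 and 180 bases before the start of transcript window 5, one of 6 windows of the gene.
Sgk1, chr10:21993640-21993939, plus strand: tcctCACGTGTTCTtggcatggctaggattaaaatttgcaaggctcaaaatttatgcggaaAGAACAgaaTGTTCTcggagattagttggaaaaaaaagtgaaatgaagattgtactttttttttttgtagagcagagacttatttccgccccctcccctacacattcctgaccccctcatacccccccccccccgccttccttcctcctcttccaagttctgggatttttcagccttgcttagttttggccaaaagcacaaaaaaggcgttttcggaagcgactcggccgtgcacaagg

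The circadian clock genes Per1, Per2, Cry1, Cry2 and Wee1 rose, and the clock's activators did not pass the test. The clock runs on activators (CLOCK and BMAL1, here Arntl) that bind E-boxes and drive the period and cryptochrome genes, whose products then repress them. Per1 (chromosome 11, 69095217 to 69109960) was at 8.48, 16.2 and 8.92 FPKM in vehicle, 9.79, 6.44 and 8.27 in brivanib, 32.4, 17.8 and 37.4 in cisplatin, and 28.3, 35.1 and 31.4 in the combination. It rose by 1.57 ± 0.20 (adjusted p = 0.00244). The groups were apart by a narrow margin, vehicle 3 against cisplatin 2. With the most abundant transcript of Per1 alone, its call was lost. Per2 (chromosome 1, 91415982 to 91459324) ran from 2.02 to 3.10 FPKM without cisplatin and from 4.53 to 5.52 with it, a rise of 0.78 ± 0.11 (adjusted p = 0.00273). The cryptochromes Cry1 and Cry2 rose by 0.48 each (adjusted p = 0.0413 and 0.0104).

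Arntl was at -0.05 ± 0.13 (adjusted p = 0.869), Clock at 0.22, the feedback repressor Nr1d1 at -0.09 and the output factor Dbp at -0.34, none past the test. Of 18 tested clock genes 5 rose and 0 fell (27.8%), and 9 of 18 differences were positive. Wee1 is the fifth, since it is under clock control as well as a mitotic kinase. The time of day at collection is not given in the sources used here, so it and cisplatin cannot be told apart. The list's median of 0.06 changed sign in 3 of 30 alternatives. The Per1 promoter is shown for the E-box, which was in 7.2% of all windows and in 9.9% of those of tested genes. It was in 2 of the 4 windows matched to 3 of these 5 genes, and not in window 2 of Per1. Capitals mark that E-box, which begins 166 bases before the start.
Per1, chr11:69098699-69098998, plus strand: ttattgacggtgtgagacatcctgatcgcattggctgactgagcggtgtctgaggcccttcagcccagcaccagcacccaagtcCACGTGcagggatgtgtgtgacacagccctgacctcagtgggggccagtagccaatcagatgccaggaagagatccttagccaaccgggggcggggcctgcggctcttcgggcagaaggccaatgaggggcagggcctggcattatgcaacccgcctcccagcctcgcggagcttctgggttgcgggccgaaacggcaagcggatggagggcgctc

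**Figure D2:**
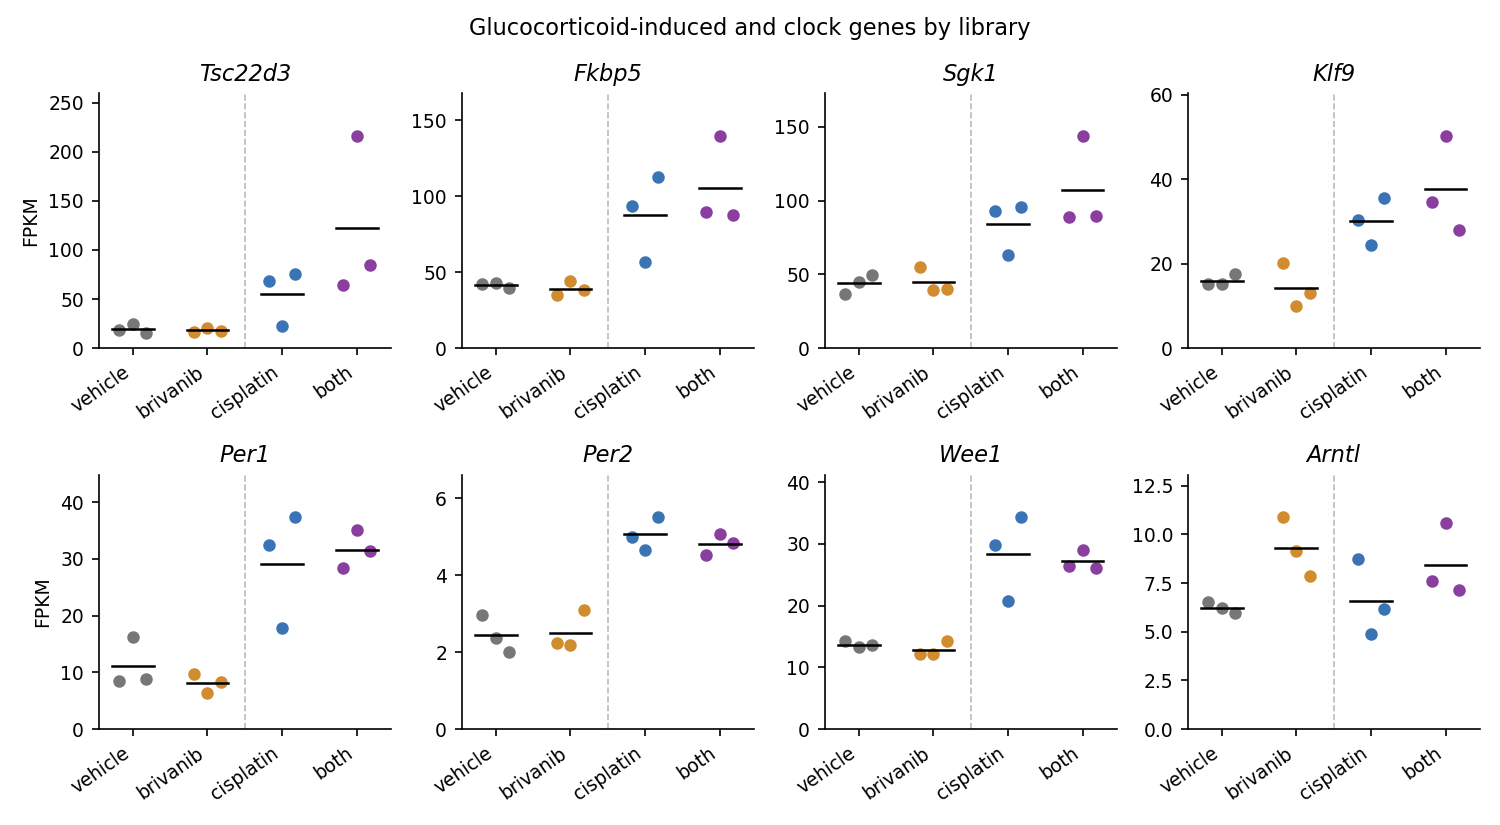
FPKM of 4 glucocorticoid-induced genes (top) and of Per1, Per2, Wee1 and Arntl (bottom) in each library (points), with group means (lines) and a dashed line between libraries without and with cisplatin. Wee1 and Per2 separate the 2 sides, Tsc22d3 overlaps through cisplatin 2, and Arntl overlaps between them.

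Wee1, the kinase that restrains CDK1 before mitosis (chromosome 7, 110122046 to 110143286), was among the most even changes. It was at 14.2, 13.2 and 13.6 FPKM in vehicle, 12.2, 12.1 and 14.3 in brivanib, 29.8, 20.7 and 34.4 in cisplatin, and 26.5, 28.9 and 26.2 in the combination. The groups did not overlap, and the mean went from 13.3 ± 0.968 to 27.7 ± 4.54 FPKM (SD, n = 6), a rise of 0.996 ± 0.10 (adjusted p = 0.000791). It rose by 0.97 in tumours without brivanib and by 1.02 in tumours with it, and it passed the test in all 30 alternatives.

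Among 18 G2 checkpoint genes 7 rose and 0 fell (38.9%), with a median of 0.30. The others were the CDK-activating phosphatases Cdc25b (0.33) and Cdc25c (0.49), the CHK1 mediator Clspn (0.55), the ATR activator Topbp1 (0.31), the fork protector Tipin (0.39) and the cyclin Ccna2 (0.46). Chek1 (0.17), Chek2 (0.22), Atm (0.23) and Atr (-0.12) did not pass. The count was 1 without combination 2, 2 without vehicle 2 or cisplatin 1, and 4 without vehicle 3, brivanib 2, brivanib 5 or cisplatin 3.

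Mitosis genes were higher in number rather than in size. Of 40 tested 20 rose and 0 fell (50% against 5.60% of all genes), all 40 differences were positive, and the median was 0.36. Ube2c, the ubiquitin conjugase of the anaphase complex (chromosome 2, 164769898 to 164778822), was at 90.9, 111.5 and 127.8 FPKM in vehicle, 137.6, 157.4 and 137.8 in brivanib, 187.1, 172.9 and 168.3 in cisplatin, and 227.5, 183.6 and 184.7 in the combination. It rose by 0.57 ± 0.10 (adjusted p = 0.00834) without overlap. Prc1, which bundles spindle microtubules (chromosome 7, 80294450 to 80316259), ran from 21.9 to 33.9 FPKM without cisplatin and from 35.5 to 44.8 with it (0.54 ± 0.08, adjusted p = 0.0046).

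The kinesin Kif20a (0.73), the cyclins Ccnb1 (0.63) and Ccnb2 (0.61), the mitotic transcription factor Foxm1 (0.59), survivin Birc5 (0.58) and the cohesin protector Sgo1 (0.51) also rose. The proliferation marker Mki67 was at 0.20 ± 0.13 (adjusted p = 0.383), the topoisomerase Top2a at 0.26, the kinase Plk1 at 0.38 and Cdk1 at 0.18, none past the test. The count of 20 was 13 without combination 2 and 31 without brivanib 3 and 5. It was 9 when the adipocyte score was a covariate and 1 after rescaling to equal FPKM totals, which lowers the other genes of brivanib 5 and shifts the median over all genes to 0.15.

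The promoter of Prc1 is shown because cell cycle promoters often carry a CCAAT box and the cell cycle element TTTGAA, called CHR. Of the 20 mitosis genes that rose, 16 were matched, with 17 windows. CCAAT was in 64.7% of these windows and in 37.9% of those of all tested genes, and TTTGAA in 64.7% against 12.3%, both strands searched. These shares describe sequence and say nothing of binding in these tumours. Windows of the mitosis genes that did not pass were not counted, so the shares cannot set the called genes apart from their list. Capitals mark CCAAT, which begins 37 bases before the start, and TTTGAA, at 5 bases before it.
Prc1, chr7:80294201-80294500, plus strand: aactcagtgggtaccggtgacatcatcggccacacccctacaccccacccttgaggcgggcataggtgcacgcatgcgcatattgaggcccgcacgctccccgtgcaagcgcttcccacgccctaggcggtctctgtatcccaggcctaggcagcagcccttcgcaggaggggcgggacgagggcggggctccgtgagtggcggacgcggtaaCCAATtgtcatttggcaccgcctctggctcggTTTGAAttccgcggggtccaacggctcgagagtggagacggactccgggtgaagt

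In Ube2c the same elements are on both strands, with CCAAT or its reverse complement ATTGG at 6 places and TTTGAA once, as its reverse complement. Of these, 2 CCAAT boxes overlap, which the longest CCAAT capital run shows.
Ube2c, chr2:164769679-164769978, plus strand: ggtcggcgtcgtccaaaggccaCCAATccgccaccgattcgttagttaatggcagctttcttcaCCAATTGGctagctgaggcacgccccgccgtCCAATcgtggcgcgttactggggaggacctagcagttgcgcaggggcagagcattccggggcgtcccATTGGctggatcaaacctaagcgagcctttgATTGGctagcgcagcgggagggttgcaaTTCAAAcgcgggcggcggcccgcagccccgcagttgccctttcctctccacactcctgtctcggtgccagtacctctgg

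Of 40 DNA replication genes 12 rose and 0 fell (30% against 5.60%), all 40 differences were positive, and the median was 0.31. Orc1, the largest subunit of the origin recognition complex (chromosome 4, 108579423 to 108614833), ran from 3.93 to 4.82 FPKM without cisplatin and from 6.01 to 10.2 with it, a rise of 0.67 ± 0.12 (adjusted p = 0.0101). Rrm2, the ribonucleotide reductase subunit that limits nucleotide supply, rose by 0.64, the replication initiation factor Mcm10 by 0.54, the single-strand binding protein Rpa2 by 0.50 and the helicase factor Cdc45 by 0.42 on the log2 scale. The sliding clamp Pcna (0.29) and the helicase subunit Mcm5 (0.12) did not pass. The 12 calls became 2 at equal FPKM totals, 6 when the adipocyte score was a covariate, 5 with both scores and 19 without brivanib 3 and 5.

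Of 44 genes that repair or tolerate platinum lesions 9 rose and 0 fell (20.5%), with a median of 0.15. Brca1, of homologous recombination (chromosome 11, 101488764 to 101551955), ran from 9.27 to 12.3 FPKM without cisplatin and from 13.4 to 17.8 with it (0.53 ± 0.09, adjusted p = 0.00763). The mismatch repair gene Msh6 rose by 0.59, the ubiquitin ligase of lesion bypass Rad18 by 0.47, the Fanconi genes Fancb and Fancd2 by 0.48 and 0.38 and the TFIIH helicase Ercc3 by 0.29. Ercc1, the excision nuclease often studied in platinum response, was at 11.5 to 14.9 FPKM without and 11.8 to 15.2 with cisplatin, a difference of 0.02 ± 0.09 (adjusted p = 0.925), whose sign depended on the scaling. The lesion recognition gene Xpa (0.15) did not pass. The 9 calls became 3 without cisplatin 1, 4 without combination 2 and 5 without vehicle 3, brivanib 5 or cisplatin 3. They became 0 at equal FPKM totals, 3 with ribosomal-like features removed, 2 when the adipocyte score was a covariate and 1 with both scores.

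The p53 list moved little. Of 28 targets 2 rose (7.14%, near the 5.60% of all genes). These were Ckap2, a spindle protein (0.55), and Zmat3, an RNA-binding p53 target (0.45). Cdkn1a, the p21 gene, was at 10.3 to 39.8 FPKM without and 19.4 to 43.1 with cisplatin, with overlap (0.61 ± 0.23, adjusted p = 0.137). Mdm2 was at 0.22 ± 0.11 and Trp53 at 0.14 ± 0.10 (adjusted p = 0.27 and 0.391). The count was 4 without cisplatin 2 and 4 without brivanib 3 and 5.

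Of 14 tested genes that carry platinum or change its uptake 2 rose (14.3% against 5.60%). Abcb1b, a P-glycoprotein efflux pump (chromosome 5, 8798147 to 8866315), ran from 7.45 to 10.0 FPKM without and from 11.9 to 15.7 with cisplatin (0.57 ± 0.09, adjusted p = 0.00535). The anion channel subunit Lrrc8b rose by 0.30, a call lost in 11 of the 12 fits that left out a library. The copper importer Slc31a1, through which cisplatin can enter, was at 0.13 ± 0.07 (adjusted p = 0.259). Lrrc8d, another subunit, was at 20.2, 23.4 and 12.2 FPKM in cisplatin against 2.96, 2.60 and 6.86 in vehicle, but at 7.56, 6.07 and 7.63 in the combination against 8.94, 5.09 and 11.4 in brivanib. Its average of 0.90 ± 0.38 did not pass (adjusted p = 0.171), and the difference between 1.98 without and -0.18 with brivanib had an adjusted interaction p of 0.109.

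Of the mitochondrial genome's transcripts, 6 of 13 protein-coding, 10 of 22 transfer RNA and 0 of 2 ribosomal RNA genes passed the test as higher. Of all genes 5.60% were called, 4.63% as higher. The genome is copied into long transcripts from both strands, which are cut at the transfer RNAs into messenger and ribosomal RNAs. Nearly all mitochondrial messages are on one strand, and mt-Nd6, a complex I subunit (mitochondrial genome, 13552 to 14070, minus strand), is on the other. It was at 522.2, 385.9 and 344.0 FPKM in vehicle, 386.2, 537.0 and 275.4 in brivanib, 1059, 875.6 and 869.5 in cisplatin and 925.1, 1043 and 828.2 in the combination. The groups did not overlap, and it rose by 1.22 ± 0.15 (adjusted p = 0.00244).

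The complex I genes mt-Nd1 (1.13), mt-Nd5 (1.11), mt-Nd3 (0.79) and mt-Nd4 (0.55) and the complex IV gene mt-Co2 (0.46) rose too. These were 6 of 13 mitochondrial protein-coding genes (46.2%), all 13 differences were positive, and the median was 0.56. The rest did not pass. They were mt-Atp6 (0.87), mt-Nd2 (0.61), mt-Nd4l (0.56), mt-Cytb (0.49), mt-Atp8 (0.45) and the complex IV genes mt-Co3 (0.28) and mt-Co1 (0.27). Some of them thus had differences as large as those of called genes. For mt-Atp6 the spread was wide, at 504 ± 61.1 FPKM without and 1204 ± 1245 FPKM with cisplatin (SD). The 5 complex I genes among the 6 calls were of 7 in the genome. Of 22 transfer RNA genes 10 rose and 0 fell, among them mt-Tw (1.96), mt-Tl1 (1.83), mt-Ta (1.77) and mt-Tn (1.62). Those that did not pass ranged from mt-Th (1.425), mt-Ts2 (1.28) and mt-Tl2 (1.14) to mt-Tr (-0.00) and mt-Ti (-0.01). The leucine transfer RNA mt-Tl1 lies beside mt-Nd1 and was at 63.9 to 120 FPKM without and 208 to 416 FPKM with cisplatin. The 6 protein-coding calls became 4 at equal FPKM totals, by median-of-ratios scaling, by quantile normalization or with the adipocyte score. They became 8 without brivanib 3 and 5. Of the transfer RNAs, mt-Tp lost its call in 3 of the 12 fits that left out a library, and mt-Tw, mt-Tl1, mt-Ta and mt-Tn in 0.

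Transfer RNAs are shorter than a usual fragment, so their FPKM are uncertain as levels, and nuclear copies of mitochondrial genes share reads with them. The strand setting of the libraries is not given in the sources used here, so fragments of mt-Nd6 and of transcripts from the opposite strand may not be told apart. The ribosomal RNAs mt-Rnr1 and mt-Rnr2 did not pass (0.22 ± 0.60 and 0.48 ± 0.57). Without cisplatin they were at 757 ± 1400 and 377 ± 668 FPKM (SD). They count among the ribosomal-like features, which took 38.323% of the recovered fragments of brivanib 5. In cisplatin against vehicle their unadjusted p was 0.00339 and 0.000224, and in combination against brivanib 0.82 and 0.987 (limma). Whether they moved like the other mitochondrial RNAs cannot be told from the joint fit.

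**Figure D3:**
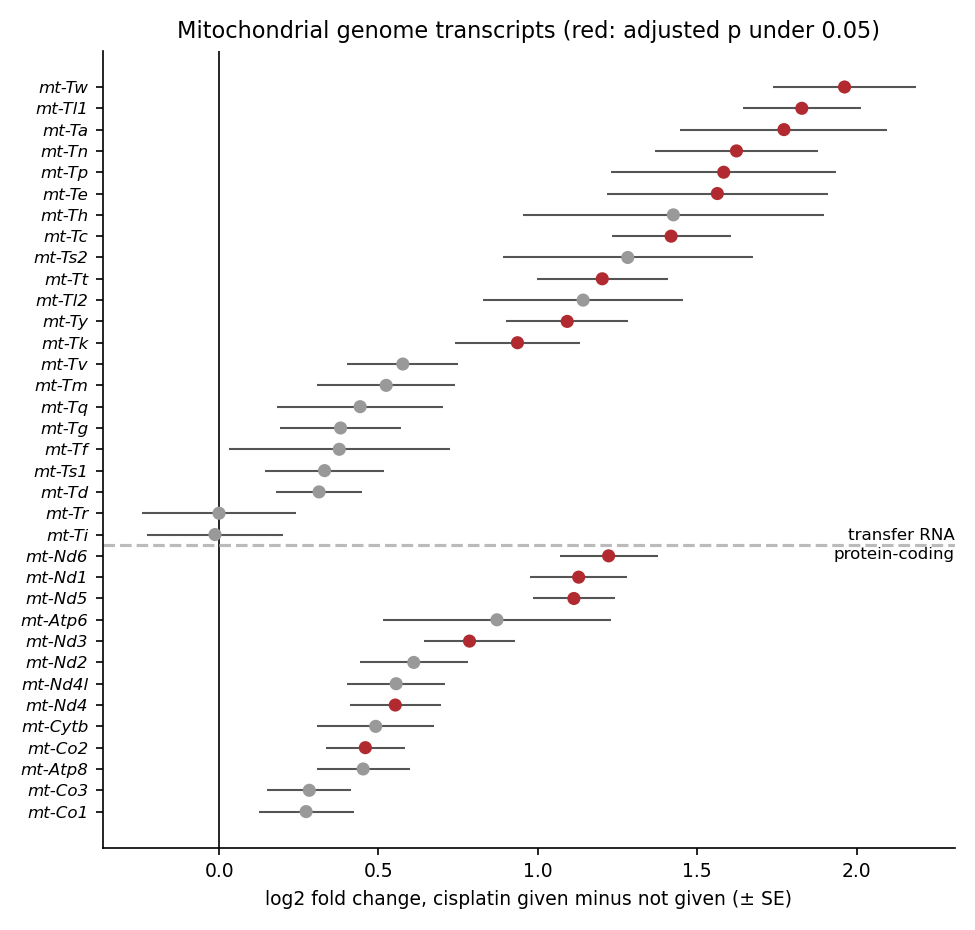
Log2 difference with cisplatin (points, bars are SE) for the 13 protein-coding and 22 transfer RNA genes of the mitochondrial genome, in red where the adjusted p was under 0.05. All 13 protein-coding genes lie right of 0, with 5 complex I genes and mt-Co2 in red.

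Some genes of the interferon-gamma and MHC class I and type I interferon lists rose, each by less than 1 on the log2 scale. Of 31 genes of the interferon-gamma and MHC class I list 8 rose and 0 fell (25.8%). Tap1, a subunit of the peptide pump that loads class I molecules (chromosome 17, 34187553 to 34197225), ran from 12.7 to 22.3 FPKM without and from 25.0 to 32.9 with cisplatin (0.63 ± 0.13, adjusted p = 0.0159). The class I heavy chains H2-D1 and H2-K1 rose by 0.44 and 0.40, their transactivator Nlrc5 by 0.62, the immunoproteasome subunit Psmb9 by 0.42, the GTPase Irgm1 by 0.81 and the feedback inhibitor Socs1 by 0.49. The light chain B2m (0.30), Cxcl9 (-0.25), Cd274 (0.20) and Irf1 (-0.01) did not pass. The count was 3 without brivanib 3 and 5, vehicle 5, brivanib 5 or combination 2, 4 without vehicle 3 or combination 3, and 5 without cisplatin 1 or 2. It was 0 once the adipocyte score was a covariate.

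Of 36 type I interferon response genes 5 rose (13.9%). Ifit2, an inhibitor of viral translation (chromosome 19, 34550694 to 34576419), ran from 9.72 to 12.8 FPKM without and from 14.9 to 20.8 with cisplatin (0.62 ± 0.10, adjusted p = 0.00645). Xaf1 (0.87), Trim30a (0.56), the RNA-activated kinase Eif2ak2 (0.43) and the signalling factor Irf9 (0.41) also rose, while Isg15 (0.22) and Irf7 (0.15) did not pass. The count was 2 or 3 in the 9 fits that left out any library but brivanib 3, cisplatin 2 and combination 4, and 0 with both tissue scores as covariates.

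DNA sensing genes of the cGAS-STING pathway, which the series title raises for brivanib, had 1 of 17 past the test (5.88%, near the 5.60% of all genes). That gene was Ifi204, a DNA-binding HIN-200 protein, at 0.72 ± 0.19 (adjusted p = 0.0451), a call lost in 10 of the 12 fits that left out a library. Cgas was below the filter, at 0.127 to 0.912 FPKM over the 12 libraries. STING (Tmem173) was at 18.7 to 24.7 FPKM without and 19.8 to 23.7 with cisplatin (0.03 ± 0.08), Tbk1 at 0.01 ± 0.07 and Irf3 at -0.09 ± 0.09, with adjusted p of 0.843, 0.962 and 0.57, and the sign of Tmem173 and Tbk1 depended on the scaling. Ifi207, another HIN-200 gene (chromosome 1, 173723427 to 173741747), was at 19.1, 18.6 and 13.5 FPKM in vehicle, 11.2, 7.28 and 11.1 in brivanib, 32.3, 29.96 and 38.9 in cisplatin, and 55.6, 78.0 and 44.6 in the combination. It rose by 1.70 ± 0.26 (adjusted p = 0.00525) without overlap. Both belong to a family of near-identical copies, so the split of their fragments is uncertain.

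Immune cell markers gave few calls, with 9.09% of the T cell, 5.56% of the cytotoxic and 11.1% of the dendritic cell genes against 5.60% of all genes. Of 11 tested T cell markers 1 fell, the kinase Lck (-0.67 ± 0.18, adjusted p = 0.0442), and of 18 cytotoxic genes 1 fell, the protease Ctsw (-0.74 ± 0.19, adjusted p = 0.0413). Each of the 2 calls was lost in 10 of the 12 fits that left out a library. Cd8a was below the filter, and the granzyme gene Gzmb was at -0.25 ± 0.27 (adjusted p = 0.623). Of 9 dendritic cell markers Clec9a, a receptor for dead cells, rose (0.66), a call lost in 8 of those 12 fits. Of 23 macrophage, 11 neutrophil, 7 mast cell and 8 MHC class II genes tested, limma called 0. Unadjusted p was under 0.05 for 4, 0, 4 and 4 of them, against 3314 of all 14246 genes. These counts average over brivanib. The list medians were 0.18, 0.31, 0.01 and 0.14 without brivanib, and -0.88, -0.44, -1.90 and -1.42 with it. The mast cell genes Tpsb2 and Cma1 passed in combination against brivanib (limma, adjusted p = 0.0163 and 0.0488), not in cisplatin against vehicle (0.863 and 0.985).

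Of 12 tested pericyte and smooth muscle genes 3 fell. Pericytes wrap capillaries, and Rgs5 is one of their defining markers (chromosome 1, 169655501 to 169695813). It was at 16.3, 18.8 and 14.4 FPKM in vehicle, 15.97, 22.4 and 14.2 in brivanib, 7.58, 8.63 and 7.005 in cisplatin, and 7.48, 3.92 and 5.84 in the combination. The groups did not overlap, and it fell by 1.23 ± 0.16 on the log2 scale (adjusted p = 0.00244). The platelet-derived growth factor receptor Pdgfrb (-0.55) and the adhesion molecule Mcam (-0.65) fell too (25.0% of the list against 5.60% of all genes), and all 12 differences were negative (median -0.65). Smooth muscle actin Acta2 was at -1.12 and Ndufa4l2 at -1.33 without passing. Mcam lost its call in 8 of the 12 fits that left out a library and Pdgfrb in 3, and the count was 1 without combination 2 and 5 without brivanib 5.

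Of 22 endothelial markers limma called 0, and 4 had an unadjusted p under 0.05, against 3314 of all 14246 genes. Pecam1 was at -0.12 ± 0.14 (adjusted p = 0.634) and Kdr, the main VEGF receptor, at -0.34 ± 0.16 (adjusted p = 0.221). Of 31 hypoxia and glycolysis genes 2 fell (6.45%, near the 5.60% of all genes), the phosphofructokinase Pfkl (-1.03 ± 0.22, adjusted p = 0.0202) and the collagen hydroxylase P4ha1 (-1.10 ± 0.29, adjusted p = 0.0436). Of these genes 28 were negative, with a median of -0.36. The glucose importer Slc2a1 (-1.25), the mitophagy gene Bnip3 (-1.16) and Vegfa (-0.55) did not pass. The count was 13 without brivanib 3 and 12 without brivanib 3 and 5, and 1 in each of the other 11 fits that left out a library, where P4ha1 lost its call.

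Dcn, the matrix proteoglycan decorin (chromosome 10, 97479609 to 97518143), was at 138.2, 128.2 and 138.9 FPKM in vehicle, 135.2, 144.7 and 131.0 in brivanib, 86.0, 55.9 and 71.5 in cisplatin and 64.6, 43.2 and 74.9 in the combination. It fell by 1.06 ± 0.13 on the log2 scale (adjusted p = 0.00244), without overlap and in all 30 alternatives. It was one of 2 of 30 fibroblast and matrix genes past the test (6.67%, near the 5.60% of all genes), with fibronectin Fn1 (-0.58), which lost its call in 10 of the 12 fits that left out a library. Collagen Col1a1, by contrast, was at 8.57, 2.63 and 30.1 FPKM in vehicle, 481.9, 226.8 and 233.4 in brivanib, 75.6, 18.1 and 15.7 in cisplatin, and 50.8, 8.94 and 49.1 in the combination. Vehicle and brivanib lay on both sides of the cisplatin groups, and the libraries overlapped.

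**Figure D4:**
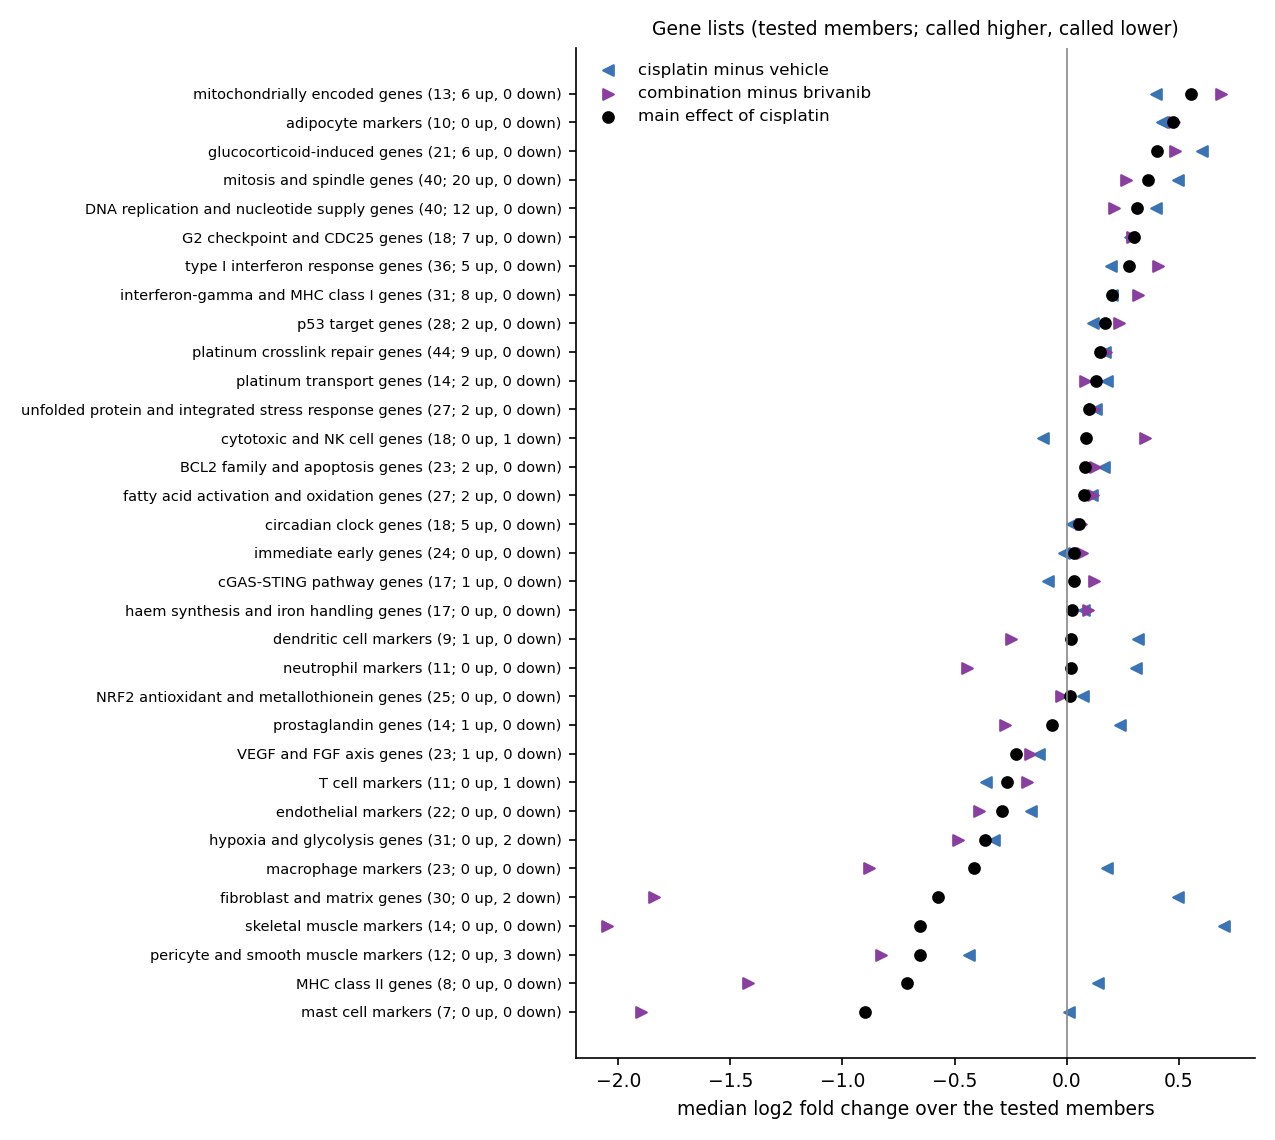
Median log2 difference over the tested members of each gene list for cisplatin minus vehicle, combination minus brivanib, and the main effect of cisplatin, with the number tested and called in brackets. The erythroid list (median -5.28) is left off for scale. The fibroblast median is 0.50 without and -1.84 with brivanib, while the mitosis medians of 0.50 and 0.27 have 1 sign.

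The comparison can be split into cisplatin against vehicle and combination against brivanib, which share no library. Fitted apart with 3 and 3 libraries, the first called 42 genes (0.295%) and the second 138 (0.969%). Of the 42, 36 (85.7%) had the same sign in the other comparison, against 62% of all genes. With the same sign and an unadjusted p under 0.05 there were 28, against 11.5% of all genes. Of the 138, 68 (49.3%) had the same sign. Called in both were 4 genes, Rgs5, mt-Tl1, Hba-a1 and Hbb-bt, which is 9.52% of the 42 and 2.90% of the 138. All 798 genes of the joint fit had the same sign in both, which the joint fit favours by its construction.

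The cisplatin effect differed with brivanib for 20 genes (0.140%) by the interaction term, and 0 of these were among the 798. All 20 were lower with cisplatin in brivanib-treated tumours. Several, among them Cd209f, Fndc1 and Pi16, passed the filter on low values only through the brivanib libraries. The shared direction thus partly follows from which genes entered the test. With a pseudocount of 0.1 the interaction count was 0. Of the fibroblast list 5 genes were among the 20. Col14a1, a fibril-associated collagen, was at 0.342, 0.14 and 0.785 FPKM in vehicle, 8.59, 11.3 and 8.97 in brivanib, 1.69, 0.458 and 0.381 in cisplatin and 0.832, 0.128 and 0.673 in the combination. Its brivanib libraries stood apart from the other 9. The fibroblast gene Pi16, the matrix protein gene Fndc1 and the macrophage lectin Cd209f had the same order, with interactions of -3.40, -2.82 and -3.67 (adjusted p = 0.0129, 0.0129 and 0.000939). Summed FPKM of the 30 fibroblast genes was 3314 to 4173 in brivanib and 868.9 to 2279 in the other groups. Brivanib 3 and 5, but not brivanib 2, also had high muscle markers, whose part in the result was not tested.

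**Figure D5:**
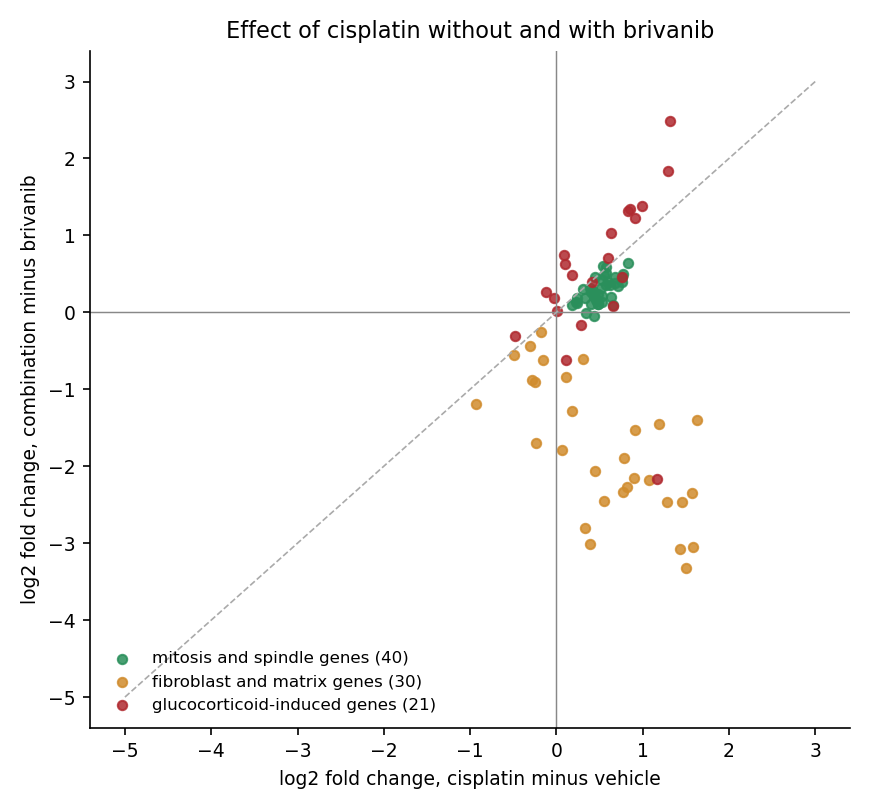
Log2 difference of cisplatin minus vehicle (horizontal) against combination minus brivanib (vertical) for the tested genes of 3 lists, with the line of equality dashed. Mitosis genes cluster above 0 on the horizontal axis, glucocorticoid-induced genes reach highest, and most fibroblast genes lie far below 0 on the vertical axis alone.

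In lipid metabolism, Ptgs1, the prostaglandin synthase COX-1 (chromosome 2, 36230426 to 36252272), was at 26.7, 29.6 and 28.8 FPKM in vehicle, 28.1, 27.9 and 22.04 in brivanib, 62.7, 44.5 and 61.7 in cisplatin, and 55.7, 71.2 and 62.8 in the combination. It rose by 1.10 ± 0.11 (adjusted p = 0.000573), 1 of 14 tested prostaglandin genes (7.14%). Acsbg1, an acyl-CoA synthetase, rose by 1.35 ± 0.17 (adjusted p = 0.00244) and Cpt1a, which admits fatty acids to mitochondria, by 0.85, 2 of 27 genes of fatty acid use (7.41%). Both shares are near the 5.60% of all genes. Ptgs1 and Acsbg1 passed in all 30 alternatives, and Cpt1a lost its call in 8, among them the fit with the adipocyte score, the fits without cisplatin 1 or combination 2 and the fit without brivanib 3 and 5. The part of adipocyte markers, which were high in the combination, was not tested further.

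Among the larger changes, the ferritin receptor Scara5 ran from 0.928 to 1.88 FPKM without and from 3.53 to 9.71 with cisplatin, a rise of 1.49 ± 0.19 (adjusted p = 0.00254). The zinc finger gene Zbtb6 rose by 1.54 and the inflammasome gene Naip1, one of a family of near-identical copies, by 1.44. Zbtb6 lost its call with the most abundant transcript alone. The cornified envelope gene Sprr1a fell by 1.37, the monocyte chemokine Ccl12 by 1.15, the RNA-binding protein gene Rbm12b1 by 0.88 and the acid phosphatase Acpp by 0.84 on the log2 scale. The cell death genes Bok and Bcl2l1, which promote and restrain apoptosis, rose by 0.61 and 0.64, 2 of 23 tested (8.70%, near the 5.60% of all genes). Bcl2l1 lost its call in 20 of 30 alternatives, 9 of them fits that left out a library, and was at 0.04 with the most abundant transcript alone. Of 25 NRF2 and metallothionein genes and 24 immediate early genes, limma called 0. At an unadjusted p under 0.05 these were 2 and 6 genes, against 3314 of all 14246 genes. The 2 and 6 genes included the haem oxygenase gene Hmox1 (-1.39 ± 0.55, adjusted p = 0.154) and the AP-1 gene Fosl2 (-0.41 ± 0.11, adjusted p = 0.0503).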

How the data were processed

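Each of the 12 libraries is RNA-seq of an LLC tumour. The authors deposited 1 table of FPKM per transcript for 135276 transcripts. The submitters' processing notes name Bowtie, HISAT, Bowtie2 2.2.5, RSEM 1.2.12 and mm9. The table's coordinates are those of GRCm38, used here for positions. Of the table's columns, 1 matched no library label and was not used, and 3 broken lines were skipped.

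Mouse transcripts were summed per gene and log2(FPKM + 1) taken for the 14246 genes with a mean FPKM of at least 1. limma 3.58.1 in R 4.3.3 fitted cisplatin and brivanib as additive terms (9 residual degrees of freedom), with Benjamini-Hochberg adjustment over all tested genes and a threshold of 0.05. The separate comparisons had 4 degrees of freedom, and the interaction came from a model with both terms and their product. FPKM times length gave whole fragments within 0.01 for 100.0% of low values, from which depth was taken. Fold bounds set the mean of the brivanib libraries against a floor of 3 fragments per library and cover counting error only. The fit was tested on simulated data.

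Named genes were the 12 largest called and non-overlapping changes in each direction, the leading called members of each list, 25 preset genes of known relevance and the leading genes of the separate comparisons. Other list members are given as examples, chosen after their values were seen. The comparison, members and gene lists were chosen with earlier results of these data known, so a list is described by its count, to be read against the share of all genes called. Of 30 alternatives, 29 were set out at the start and leaving out brivanib 3 and 5 was added after seeing the data. Some list members are counted but not reported here by name.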

Additional observations from a re-analysis of the deposited data

Results flagged for a closer look

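Among the preset genes, 6 levels stood apart from the other 5 libraries of their side. The ratio of the gap to the whole range, past Dixon's 95% critical value for 6 libraries in each case, was 0.63 for Mdm2 in brivanib 2, 0.689 and 0.744 for Trp53 in vehicle 2 and combination 3, 0.704 for Slc31a1 in cisplatin 3, 0.795 for Kdr in brivanib 3 and 0.63 for Vegfa in cisplatin 3. Chance alone gives about 1 such value in 20 groups. None of these 5 genes passed the test for cisplatin.

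The effect of cisplatin differed with brivanib, by the interaction term, for 20 genes. The difference was -3.13 for Col14a1, -3.40 for Pi16, -3.67 for Cd209f and -2.82 for Fndc1 on the log2 scale. In Cd209f the brivanib libraries were at 16.6, 13.3 and 18.3 FPKM and the other 9 at 0 to 0.624 FPKM. Col14a1, Pi16, Cd209f and Fndc1 passed the filter on low values only through the brivanib libraries.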

How the results depend on the processing

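The count of 798 genes (659 higher, 139 lower) depended on scaling and on single libraries. It was 464 (384 and 80) with no filter, 110 (92 and 18) at equal FPKM totals, 631 (420 and 211) by median-of-ratios scaling, 603 (402 and 201) by quantile normalization, 518 (358 and 160) with ribosomal-like features removed, 705 (467 and 238) by voom and 409 (357 and 52) with the most abundant transcript alone. It was 928 (707 and 221) from group means, 1082 (860 and 222) with the muscle score, 241 (201 and 40) with the adipocyte score and 196 (155 and 41) with both. Leaving out each library gave 336 to 1027 genes, 288 to 847 higher and 48 to 180 lower. Without brivanib 3 and 5 it was 798 again, with 487 genes shared.

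The 42 genes of cisplatin against vehicle became 5 with a pseudocount of 0.1, 123 at a mean of at least 5 FPKM, 6 by median-of-ratios scaling and 4 to 27 with a library left out. The 138 of combination against brivanib became 60 at 5 FPKM and 43 to 78 with a library left out. The 20 interaction genes became 0 with a pseudocount of 0.1, 2 at 5 FPKM and 1 to 27 with a library left out. With the replicate number as a block, the counts were 25 (16 and 9), 0, 3 and 1. The glucocorticoid, mitosis, replication, repair and mitochondrial protein-coding lists had 0 calls under the block. The numbers do not pair the libraries by the check used: same-numbered libraries had correlations of -0.157 to 0.213, 2 of 13 pairs were over 0.1, and 4 of 10 libraries correlated best with their own number.

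Of 79 named genes past the test, 9 passed in all 30 alternatives, 15 more lost their call under the block alone, 24 lost it without some single library and 0 changed sign. Per1, Sgk1, Alas2, Zbtb6, Prc1, Kif20a and Tap1 were among those that lost it with the most abundant transcript alone. Signs changed in 9 genes that did not pass. Ighm was at 0.0276 (equal totals), 0.0524 (quality weights), 0.00838 (without brivanib 3 and 5) and -0.19 to 0.114 (a library left out). Igkc was at 0.111 (quality weights) and -0.564 to 0.186 (a library left out). Pvalb was at 0.0898 and Hopx at -0.0389 without brivanib 3 and 5, and Hopx at -0.0096 with the most abundant transcript. Tmem173 was at -0.0196, -0.0361, -0.0136 and -0.025 by median-of-ratios, quantile, ribosomal removal and voom, and at -0.0294 and -0.0451 with the adipocyte and both scores. Tbk1 was at -0.0442, -0.0644 and -0.0383 by the first 3 of these, -0.0141 under the block and with the adipocyte score, -0.0355 with both scores, -0.0189 with quality weights, -0.219 with the most abundant transcript, and -0.0349 to 0.0358 with a library left out. Ercc1 was at -0.0334, -0.0485, -0.0275 and -0.0821 by the same 4 scalings and -0.0329 to 0.0538 with a library left out. Irf3 was at 0.0109 at equal totals and Gzmb at 0.0538 with the adipocyte score. The cause was not tested.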
